A study of Mus musculus with 4 samples.

Results

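Interferon-stimulated genes were examined in resting lymphoid progenitors of mouse bone marrow as a set of 37 named genes. They were listed by symbol, with earlier results of these data known. Of the 26421 genes listed in either of the 2 count tables, these 37 were all found in the table of experiment 2 and 36 in that of experiment 1, where Oas2 has no row. They were followed through the stages of development towards group 2 innate lymphoid cells (ILC2s), between genotypes, and in single cells.

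Type I interferons bind a receptor that activates the kinases JAK1 and TYK2, and then act through STAT2 and IRF9 in a complex that binds a DNA motif called the interferon-stimulated response element. The genes switched on in this way encode sensors of foreign nucleic acid, transcription factors that amplify the response, antiviral effectors and inhibitors that end it. Many are also transcribed at a low, tonic level without infection, and some, such as Ly6a (the stem cell antigen Sca-1), are used as markers of cell identity.

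The cells were αLPs, which are CD127+ and LPAM-1+ bone marrow progenitors that lack FLT3 and lineage markers, from wild-type (WT) C57BL/6 mice and from G3SEKO mice, in which a pair of tandem super-enhancers related to GATA3 had been deleted by CRISPR. No infection or interferon treatment is named for either genotype, and cells of several mice were combined in each of 2 experiments, marked by hashtag antibodies against MHC class I. In experiment 1 the labels give 3 hashtags to each genotype. In experiment 2 they list both hashtags under WT, and the A0303 cells were taken as G3SEKO against their label because only A0302 has enough cells for the number of WT cells in the study, so every G3SEKO value of experiment 2 rests on that choice.

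After filtering, 681 WT and 43 G3SEKO cells remained in the first experiment (median depth 396198 and 509911 reads per cell). The second held 5130 and 1159 cells at median depths of 29677 and 42814 reads. Between the experiments, 11 numeric cell names were shared. Neither the labels nor the paper says that a hashtag marks a mouse, so the reads of a genotype and gate in 1 experiment were 1 sample (n = 2). With the experiment as block, p-values rest on how far a difference between gates or genotypes varied between the experiments. They do not measure a spread between mice. Reads of one molecule were not collapsed, so all intervals and limits cover counting error only.

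Stages were defined by reads of marker genes, with a gene counted as present at ln(1 + reads per 10000) of 1 or more. The Zbtb16 gate holds Zbtb16-positive, Il1rl1-negative cells, since Zbtb16 encodes PLZF, the transcription factor of ILC progenitors. The Icos gate holds Icos-positive cells negative for both, and the Il1rl1 gate holds cells with the gene of ST2, the IL-33 receptor of ILC2s. Cells with Ccr6, Eomes or Cd3e, genes used as marks of lymphoid tissue inducer, NK or ILC1 and T lineage cells, were kept out of these 3 gates. WT cells in the Zbtb16, Icos and Il1rl1 gates numbered 87, 80 and 424 in experiment 1 and 216, 563 and 3546 in experiment 2. Pdcd1, the gene of PD-1 and an ILC progenitor marker that no gate used, followed this order in WT cells with 359, 122 and 9.08 CPM (reads per 1000000 counted) in experiment 1, and with 457, 55.1 and 10.2 CPM in experiment 2. Gata3, the gene the deleted enhancers are named for, was read at 1187 CPM in the WT cells of experiment 1 against 608 CPM in G3SEKO cells, and at 999.6 against 419 CPM in the second experiment.

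The DNA upstream of these genes was searched for the motif that names the response. Promoters from RefSeq on GRCm38.p6 were found for 26 of the 37 genes, and the 250 bases before the start were searched on both strands for GAAANNGAAA, a core of the interferon-stimulated response element. It was present for 14 of the 26 genes (53.8%), against 3.46% of the 27025 genes with a promoter entry. TTCNNNGAA, the site of STAT dimers that reads the same on both strands, was present for 6 of the 26 (23.1%), against 8.13% of all genes. No promoter entry was used for Mx1, Rtp4, Parp14, Ly6e, Usp18, Ifi27l2a, Zbp1, Ly6a, Oas2, Dhx58 and Mx2. The 90 bases before the start are shown for 3 genes of the antiviral core (Isg15, Ifit1 and Oas3), for Gbp7, which changed between stages, and for the inhibitor gene Socs1, each written 5′ to 3′ on the strand of the gene with every match to GAAANNGAAA or its reverse complement TTTCNNTTTC in capitals.
Isg15, chr4:156200819-156200908, minus strand: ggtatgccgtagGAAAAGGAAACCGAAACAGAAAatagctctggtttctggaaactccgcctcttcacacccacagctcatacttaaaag
Ifit1, chr19:34640799-34640888, plus strand: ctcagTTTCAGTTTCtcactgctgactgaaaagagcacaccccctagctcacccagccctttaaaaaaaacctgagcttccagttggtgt
Oas3, chr5:120777660-120777749, minus strand: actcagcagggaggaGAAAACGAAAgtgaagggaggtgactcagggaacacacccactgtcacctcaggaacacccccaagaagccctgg
Gbp7, chr3:142530246-142530335, plus strand: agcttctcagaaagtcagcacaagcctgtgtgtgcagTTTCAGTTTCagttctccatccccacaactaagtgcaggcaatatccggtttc
Socs1, chr16:10785537-10785626, minus strand: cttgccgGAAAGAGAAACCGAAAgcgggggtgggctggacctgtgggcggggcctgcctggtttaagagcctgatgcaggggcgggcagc

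Isg15 holds 3 overlapping matches in this window and Socs1 holds 2, while Ifit1, Oas3 and Gbp7 show 1 each. The motif was found for 6 of 11 genes of the antiviral core used further on and for 8 of 15 remaining genes. A match describes the letters only and no binding was measured.

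At steady state most of these genes were read at under 100 CPM. Over all WT cells, 7 of 36 genes in experiment 1 and 11 of 37 in experiment 2 lay at 100 CPM or more, against 7.76% of 24641 and 8.11% of 24838 listed genes. Under 10 CPM lay 9 and 12 of the set, against 61.1% and 61.9% of all listed genes. The median gene of the set had 28.9 CPM in experiment 1 and 29.4 CPM in the second experiment, against medians of 2.99 and 2.53 CPM over all listed genes. After every cell was thinned to 6000 reads, the median gene had a read in 5.36% and 3.35% of WT cells, against 21.4% and 5.30% before thinning. Ly6e, the gene of a GPI-anchored surface protein, had a read in 98.5% and 94.6% of thinned WT cells. Isg15, a ubiquitin-like modifier, had a read in 2.94% and 1.91% of thinned cells and Mx1, a dynamin-like GTPase, in 0.881% and 0.487%.

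**Figure D1:**
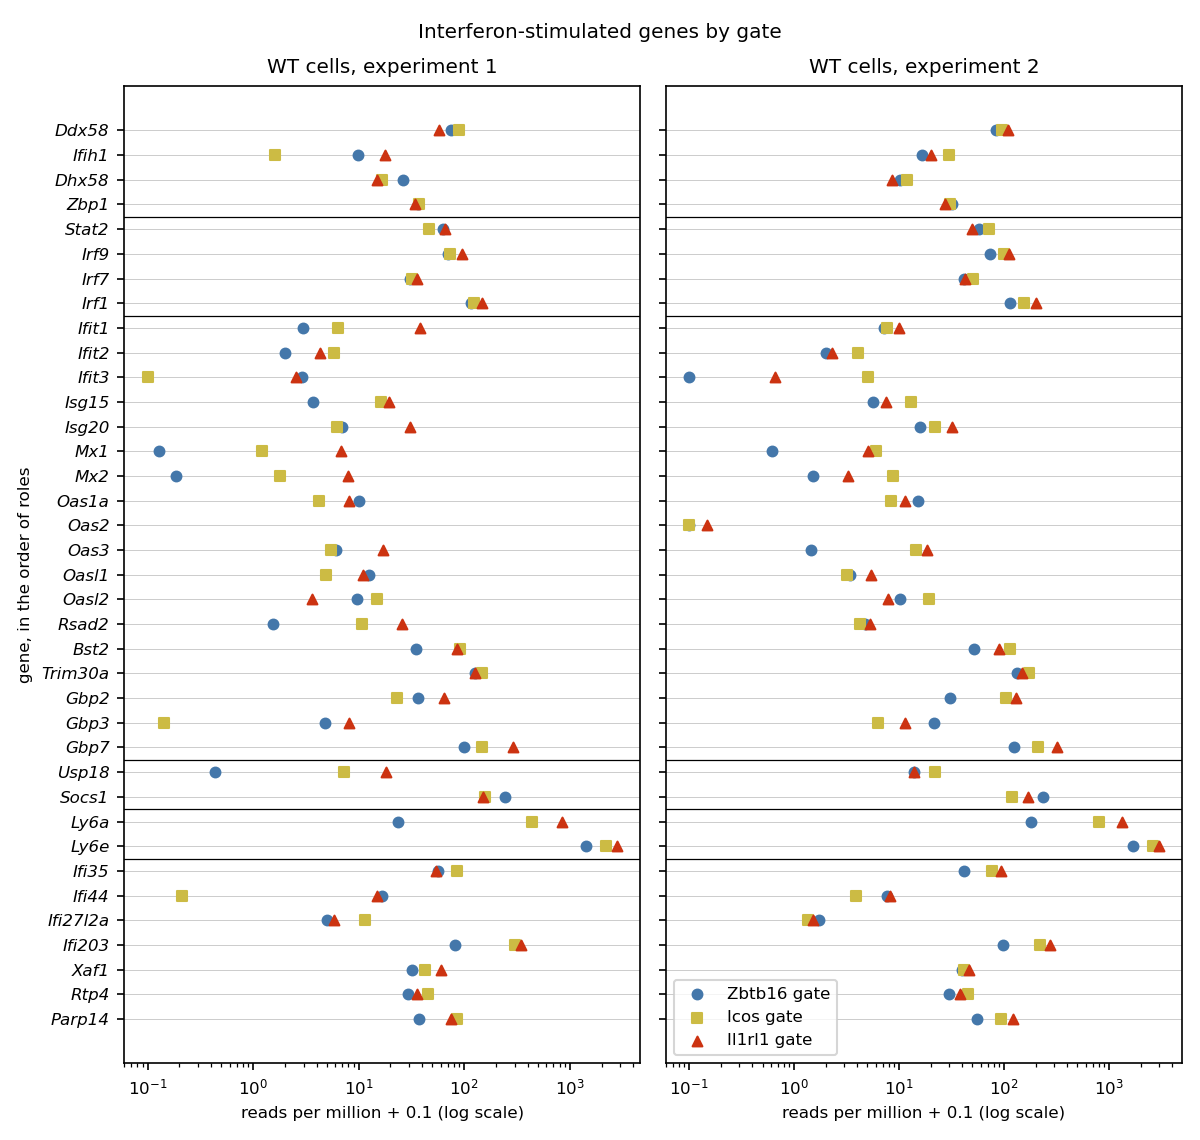
Level of each of the 37 genes in WT cells of the Zbtb16 (circle), Icos (square) and Il1rl1 (triangle) gates, as reads per 1000000 counted plus 0.1 on a log axis, in experiment 1 (left) and experiment 2 (right). Each point is 1 sum of reads, lines separate the roles in the order sensors, transcription factors, effectors, inhibitors, Ly6 proteins and others, and Ly6e, Ly6a, Ifi203 and Gbp7 show the Il1rl1 gate to the right of the Zbtb16 gate in both panels.

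Between the Zbtb16 gate and the Il1rl1 gate of WT cells, Ly6e, Gbp7 and Ifi203 were called higher and no gene of the set was called lower. These 3 of 36 genes tested were called higher at an adjusted p under 0.05 (edgeR quasi-likelihood test, Benjamini-Hochberg adjusted over all 19905 genes tested), where the background was 2.06% of genes called, 0.929% as higher and 1.14% as lower. The median log2 change was 0.63 over the 36 genes and 0.07 over all genes tested. In both experiments alike, 22 of the 36 genes were higher in the Il1rl1 gate, against a background of 32.4% of all genes, and 5 were lower, against 31.4%. The highest of the 3 stage levels was in the Il1rl1 gate for 20 genes in experiment 1 and 17 in experiment 2 (12 in both), in the Icos gate for 10 and 14 (5 in both), and in the Zbtb16 gate for 6 and 5 (2 in both). Of all 23017 genes with reads in these gates, 16.5% were highest in the Il1rl1 gate in both experiments, 11.3% in the Icos gate and 17.8% in the Zbtb16 gate.

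Ly6e lies on chromosome 15 (GRCm38, 74955051 to 74959905, plus strand). Its level was 1414 and 1699 CPM in the Zbtb16 gate of experiments 1 and 2, 2206 and 2602 CPM in the Icos gate, and 2800.4 and 2966 CPM in the Il1rl1 gate. The gates did not overlap between experiments, and the log2 change from Zbtb16 to Il1rl1 was 0.95 (SE 0.07, n = 2, edgeR adjusted p = 0.0177). Here and further on the SE is the log2 change divided by the square root of the F statistic. Among the 3 hashtags of experiment 1, Ly6e ranged from 901 to 1905 CPM in the Zbtb16 gate and from 2657 to 2887 CPM in the Il1rl1 gate.

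Gbp7 is a member of the guanylate-binding protein family of interferon-induced GTPases, in a cluster on chromosome 3 (142530342 to 142550149, plus strand) that also holds Gbp2 and Gbp3. It was read at 98.5 and 125 CPM in the Zbtb16 gate, 147 and 208 CPM in the Icos gate, and 291 and 321 CPM in the Il1rl1 gate. Both experiments rank the gates in this order, and the log2 change from Zbtb16 to Il1rl1 was 1.52 (SE 0.14, n = 2, edgeR adjusted p = 0.0273). Gbp2 stood at 36.0 and 30.4 CPM in the Zbtb16 gate and 64.7 and 129 CPM in the Il1rl1 gate without passing the test, with a log2 difference of 1.38 (edgeR adjusted p = 0.338). Gbp3 had no common direction, at 4.75 against 8.05 CPM in experiment 1 and 21.6 against 11.2 CPM in experiment 2.

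Ifi203 belongs to the cluster of interferon-inducible HIN-200 genes on chromosome 1 (173920407 to 173942672, minus strand), whose copies are alike. How reads were divided among such copies is not given in the sources used here, so the values of Ifi203 and of the Gbp, Oas and Ly6 genes carry that uncertainty. Ifi203 stood at 81.6 and 97.2 CPM in the Zbtb16 gate, 299 and 218 CPM in the Icos gate, and 349 and 271 CPM in the Il1rl1 gate. In experiment 1 its 3 hashtags lay between 79.4 and 83.5 CPM in the Zbtb16 gate and between 264 and 370.2 CPM in the Icos gate, a difference that did not pass the test over both experiments (log2 1.57, edgeR adjusted p = 0.0929). From the Zbtb16 to the Il1rl1 gate the log2 change was 1.84 (SE 0.20, n = 2, edgeR adjusted p = 0.0332).

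Ly6a had a wide difference between the gates that did not pass the test. It lies on chromosome 15 (74994877 to 74998031, minus strand), near Ly6e. It stood at 23.4 and 180 CPM in the Zbtb16 gate, 435 and 812 CPM in the Icos gate, and 846 and 1321 CPM in the Il1rl1 gate. The gates were in the same order in both experiments, with a log2 difference of 3.97 between the first and the last (SE 0.64, n = 2, edgeR adjusted p = 0.062). It passed in 8 of 15 alternatives, DESeq2 among them, against 10 of 15 for Ly6e and Gbp7 and 11 for Ifi203. Thinned to 6000 reads, 8.05% and 17.1% of cells in the Zbtb16 gate and 72.2% and 70.2% in the Il1rl1 gate had a read, against 0% and 15.4% in the Eomes gate. The median depth before thinning was 633658 and 47644 reads per cell in the Zbtb16 gate, 370422 and 31151 in the Il1rl1 gate, and 688279 and 60664.5 in the Eomes gate.

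Bst2, the gene of tetherin, which holds budding virions at the membrane, stood at 34.8 and 51.4 CPM in the Zbtb16 gate, 90.3 and 115 CPM in the Icos gate, and 85.4 and 90.1 CPM in the Il1rl1 gate. Its highest level lay in the Icos gate in both experiments, and the difference between the Zbtb16 and Il1rl1 gates did not pass the test (log2 1.11, SE 0.19, edgeR adjusted p = 0.0679). Parp14, a mono-ADP-ribosyltransferase, likewise missed it at a log2 difference of 1.14 (SE 0.22, edgeR adjusted p = 0.084), from 36.8 and 55.7 CPM to 74.7 and 123 CPM.

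**Figure D2:**
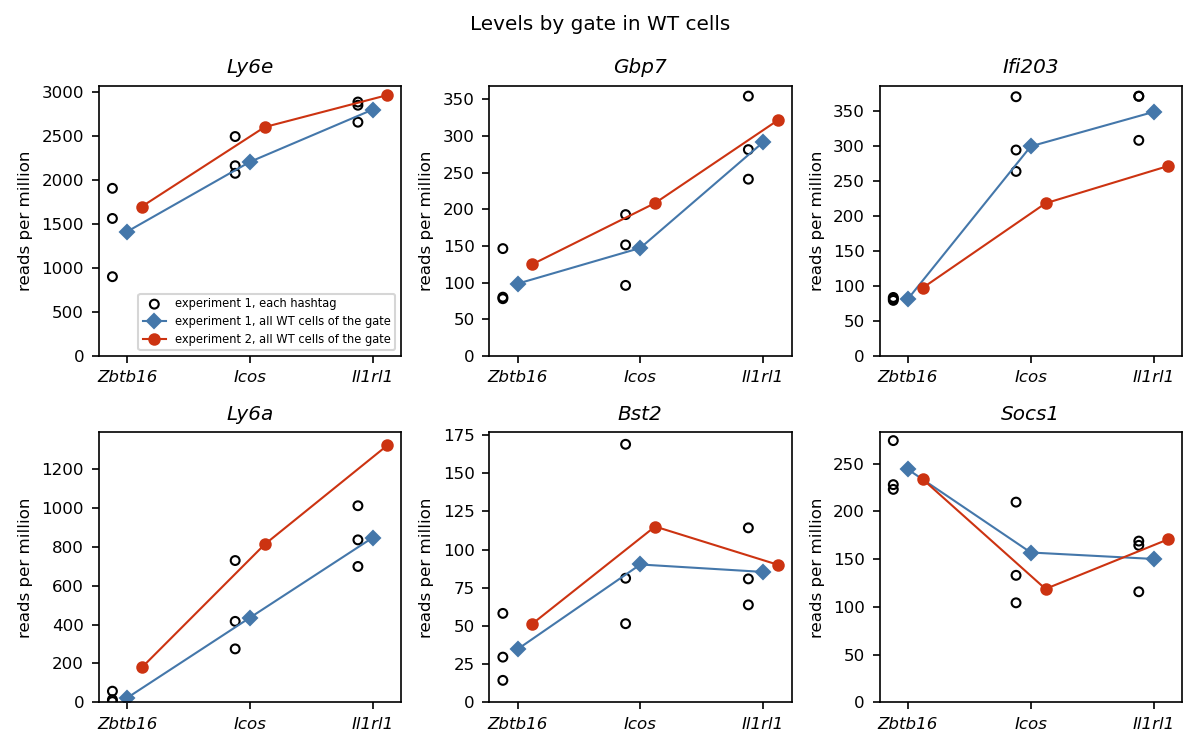
Reads per 1000000 counted of Ly6e, Gbp7, Ifi203, Ly6a, Bst2 and Socs1 in WT cells of the Zbtb16, Icos and Il1rl1 gates, on linear axes from 0. Open circles are the 3 hashtags of experiment 1, diamonds all WT cells of experiment 1 and filled circles those of experiment 2, and the lines join the gates of 1 experiment. Ly6e, Gbp7, Ifi203 and Ly6a are higher in the Il1rl1 gate than in the Zbtb16 gate in both experiments, and Socs1 is lower.

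The sensors gave no call among 4 tested, and their log2 differences between the Il1rl1 and Zbtb16 gates ran from -0.51 (Dhx58, the RIG-I-like receptor LGP2) to 0.71 (Ifih1, the double-stranded RNA sensor MDA5). Ddx58, the gene of RIG-I, was at 74.6 and 83.0 CPM in the Zbtb16 gate and 58.1 and 108 CPM in the Il1rl1 gate, with no common direction. Zbp1, a sensor of Z-form nucleic acid, differed by -0.10 on the log2 scale.

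Among the transcription factors none of 4 passed. Irf1, the activator also driven by interferon-γ, was at 116 and 115 CPM in the Zbtb16 gate and 149 and 204 CPM in the Il1rl1 gate (log2 0.64, edgeR adjusted p = 0.169). Irf9, the DNA-binding part of the complex with STAT2, was at 70.7 and 73.9 CPM against 95.8 and 112 CPM (log2 0.57, edgeR adjusted p = 0.207). Irf7, the amplifier of type I interferon production, and Stat2 differed by 0.19 and -0.01.

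Of the 18 effectors 17 were tested, 11 were higher in the Il1rl1 gate in both experiments and 2 were lower in both, and Gbp7 alone was called. Oas2 could not be tested, as it is in 1 table only. Several effectors had very few reads in the Zbtb16 gate, where Mx1 had 2 reads in experiment 1 and 7 in experiment 2, so their log2 differences of up to 5.65 depend on a handful of reads. Isg15 had 3.57 and 5.57 CPM in the Zbtb16 gate against 19.2 and 7.39 CPM in the Il1rl1 gate, and Ifit1 had 2.85 and 7.05 CPM against 38.0 and 9.89 CPM (edgeR adjusted p = 0.334 and 0.313). The Il1rl1 gate holds 4 cells with a high response, described further on, in experiment 1 and 10 in experiment 2, and the Zbtb16 gate none. Without them the Il1rl1 gate stood at 11.3 and 6.29 CPM for Isg15 and at 15.1 and 7.27 CPM for Ifit1. Trim30a, of the tripartite motif family, was at 127 and 133 CPM in the Zbtb16 gate and at 125 and 149 CPM in the Il1rl1 gate.

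Neither of the 2 inhibitor genes was called. Socs1, which blocks JAK kinases, was highest in the Zbtb16 gate at 244 and 234 CPM, against 157 and 119 CPM in the Icos gate and 150 and 171 CPM in the Il1rl1 gate. Its log2 difference between the Il1rl1 and Zbtb16 gates was -0.51 (SE 0.18, edgeR adjusted p = 0.257). Usp18, the protease that removes ISG15 from proteins and shuts off the type I receptor, was at 0.331 and 13.7 CPM in the Zbtb16 gate and 17.9 and 13.8 CPM in the Il1rl1 gate. Of all WT reads of Usp18 in experiment 1, 60.1% lay in the 5 cells with a high response, and Usp18 is among the genes that define them. The remaining genes, Ifi35, Ifi44, Ifi27l2a, Xaf1 and Rtp4, had log2 differences between -0.03 and 0.62 and no call.

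Against the Zbtb16 gate the Icos gate gave 0 calls over all 19905 genes with edgeR, where 2998 genes (15.1%) had an unadjusted p under 0.05, and 2123 calls with DESeq2. Of the 36 genes, 9 were higher and 1 was lower at that unadjusted limit, the median log2 difference was 0.57 against 0.03 over all genes, and 21 were higher and 5 lower in both experiments, against 28.4% and 30.2% of all genes. The lowest adjusted p of the set was 0.0693 for Ly6e (edgeR, log2 0.68). DESeq2 called Bst2, Gbp7, Ifi203, Ly6e, Mx1 and Parp14 higher and Socs1 lower here. The Il1rl1 gate against the Icos gate gave 2 calls (0.01%) over all genes, 1 higher and 1 lower (0.00502% each), and none in the set, with 1706 genes (8.57%) under an unadjusted p of 0.05 and 753 calls with DESeq2. The median log2 difference was 0.27 for the 36 genes and 0.05 over all genes, and 16 were higher and 7 lower in both experiments, against 32.6% and 26.9% of all genes. DESeq2 called Gbp7 higher and Oasl2 lower.

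The calls in the first of these comparisons rest on few samples. With 1 of the 6 sums left out in turn, the number of the 36 genes called higher between the Zbtb16 and Il1rl1 gates ran from 0 to 4, at 0 without the Zbtb16 gate of experiment 1 or the Il1rl1 gate of either experiment, and at 1 (Ly6a) without the Zbtb16 gate of experiment 2. On simulated counts this comparison recovered 38% of genes changed 4-fold and 59% of genes changed 16-fold.

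Further genes of the pathway were examined as 2 lists. Of 20 tested genes for interferon receptors, kinases and further signalling, 0 were called with edgeR between the Zbtb16 and Il1rl1 gates, 8 (5 higher, 3 lower) had an unadjusted p under 0.05 against 16.9% of all genes, and their median log2 difference was 0.45. Jak2, a kinase of the interferon-γ receptor, came nearest at 0.91 (SE 0.14, edgeR adjusted p = 0.0532). Of 52 tested further interferon-stimulated genes outside the set, 9 were called higher and 0 lower, against the same 0.929% and 1.14% of all genes. They were the MHC class I genes H2-K1 (log2 1.25), H2-D1 (1.04) and B2m (0.69), the dNTP hydrolase gene Samhd1 (2.70), and Ifi47, Slfn8, Gbp4, Slfn5 and Ifi209 (1.62 to 2.71), with edgeR adjusted p-values from 0.0133 to 0.034. H2-K1 stood at 1308 and 2178 CPM in the Zbtb16 gate and at 3197 and 4664 CPM in the Il1rl1 gate.

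Markers of other cells moved between the same gates. From the Zbtb16 to the Il1rl1 gate, the summed level of the 3 stem cell genes (Kit, Cd34, Flt3) went from 308.9 and 249.2 CPM to 30.5 and 28.4 CPM, that of 6 NK or ILC1 genes from 220.2 and 129.7 CPM to 21.1 and 19.1 CPM, and that of 4 LTi or ILC3 genes from 294 and 370.3 CPM to 42.8 and 26.1 CPM. The 5 genes listed for plasmacytoid dendritic cells, a professional source of interferon (Siglech, Ccr9, Tcf4, Cox6a2 and Irf8, the last also in the signalling list), summed to 232 and 257 CPM in the Zbtb16 gate and 1089 and 785 CPM in the Il1rl1 gate, of which Ccr9 made up 1019 and 742 CPM. Siglech and Cox6a2 were under 1 CPM in WT cells of every one of the 3 gates. Tcf4, also on that list, stood at 196 and 133 CPM in the Zbtb16 gate and at 63.5 and 39.4 CPM in the Il1rl1 gate. Of the erythroid list, the globin gene Hba-a1 went from 1.45 and 2.52 CPM in the Zbtb16 gate to 20.6 and 22.7 CPM in the Il1rl1 gate, and Hba-a2 from 2.78 and 1.19 CPM to 15.2 and 13.8 CPM. Hbb-bs went from 1.78 and 0.148 CPM to 4.12 and 0.79 CPM, and Hbb-bt from 0.748 and 0 CPM to 1.16 and 0.23 CPM. The lists for T, myeloid and B cells summed to 7.78 and 18.2, 15.9 and 8.76, and 336 and 367 CPM in the Zbtb16 gate, and to 10.9 and 7.58, 16.3 and 2.66, and 261 and 279 CPM in the Il1rl1 gate. Median reads per cell also differed between the gates, as given beside Ly6a. The part of these differences in the changes of the set was not tested. Fewer cells of a kind and less RNA per cell cannot be told apart in such sums.

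The Eomes gate held 17 and 26 WT cells, and its markers were mixed. In experiment 2 reads of the ILC progenitor genes Zbtb16, Tox, Tox2 and Pdcd1 were found in 65.4%, 61.5%, 53.8% and 46.2% of its cells. Apart from Eomes, which sets the gate, the NK or ILC1 genes Il2rb, Klrd1, Tbx21, Ncr1 and Klrb1c were read in 46.2%, 26.9%, 15.4%, 11.5% and 7.69%. In experiment 1 Zbtb16 and Tox were each read in 94.1% of its cells, Tox2 in 76.5% and Pdcd1 in 52.9%. Il2rb and Klrd1 were also each read in 94.1% there, Tbx21 in 52.9%, Ncr1 in 41.2% and Klrb1c in 35.3%, so the gate is named by its gene only. Of the 32 genes tested against the Zbtb16 gate, 17 were lower in both experiments and 4 higher, against 35.8% and 19.1% of all 14905 genes tested. The median log2 difference was -1.60 for the set and -0.20 for all genes. EdgeR gave 0 calls over all genes with 1065 (7.15%) under an unadjusted p of 0.05, and DESeq2 gave 152, none of them in the set. Ly6a stood at 4.56 and 78.1 CPM in the Eomes gate, under its 23.4 and 180 CPM in the Zbtb16 gate. This comparison recovered 8% of simulated 4-fold changes, so a change of that size was hardly detectable.

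The Ccr6 gate held the highest summed level. In experiment 2 the 37 genes summed to 10118 CPM in its 38 WT cells and 9140 CPM in its 108 A0303 cells, against 6431 and 5767 CPM in the Il1rl1 gate. Ly6e made up most of it, at 5847 CPM in WT and 5775 CPM in A0303 cells of the Ccr6 gate. Bst2 stood at 478 and 364 CPM there, against 90.1 and 155 CPM in the Il1rl1 gate of the same genotypes. Of the 24 genes of the set at 10 CPM or more in the WT Il1rl1 gate, 17 were higher and 7 lower in the WT Ccr6 gate, against 44.6% and 55.4% of all 9344 genes at that level. With 2 WT cells in this gate in experiment 1, no test was run, and 1 of the 38 cells held all 187 reads of Oas2.

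Between genotypes the set was compared in the precursors, the Zbtb16 and Icos gates combined, and in the Il1rl1 gate. In the precursors edgeR called 0 of 18474 genes and 0 of the 36 genes tested in the set, with 479 genes (2.59%) under an unadjusted p of 0.05 and 130 calls with DESeq2. Ly6a had the lowest p of the set. Its level was 186 CPM in WT against 24.0 CPM in G3SEKO precursors of the first experiment, and 594 against 79.1 CPM in the second. The log2 difference was -2.92 (SE 0.19, edgeR adjusted p = 0.986), at -2.96 and -2.91 within the experiments. Its unadjusted p in edgeR was 9.9e-05, and DESeq2 called it.

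Within the Zbtb16 gate Ly6a had 23.4 CPM in WT against 30.1 CPM in G3SEKO cells in the first experiment, and 180 against 24.0 CPM in the second. Within the Icos gate it had 435 CPM in WT against 4.93 CPM in 6 G3SEKO cells, and 812 against 151 CPM. The direction was the same in both experiments in the Icos gate and opposite in the Zbtb16 gate. The make-up of the precursors moved with genotype, since the Zbtb16 gate supplied 87 of the 167 WT precursors against 17 of the 23 G3SEKO precursors in the first experiment, with 216 of 779 against 352 of 663 in the second. Its part in the pooled difference was not tested.

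Of the remaining genes, Gbp7 had 118 CPM in WT against 55.9 CPM in G3SEKO precursors of the first experiment and 180 against 106 CPM in the second (log2 -0.90, edgeR adjusted p = 0.986). Socs1 had 382 CPM in G3SEKO against 209 CPM in WT precursors, and 214 against 158 CPM (log2 0.67, edgeR adjusted p = 0.986). Across the set 15 genes were lower in G3SEKO precursors in both experiments and 4 were higher, against 28.8% and 23.9% of all genes, and the median log2 difference was -0.37 against -0.07 over all genes. Ly6e did not share the difference of Ly6a, with 1727 CPM in WT against 1783 CPM in G3SEKO precursors, and 2290.3 against 2335 CPM. Experiment 1 has 23 G3SEKO precursors, and in it genes such as Irf7 (30.9 CPM in WT, 0.566 CPM in G3SEKO) rest on few reads per cell. Experiment 1 alone, whose labels give the genotypes used, gave 0 calls with its hashtags as samples. Its G3SEKO hashtags held 12, 3 and 8 precursors, the second of them under the minimum of 5 cells per sum. With so few cells, 0 calls cannot show that the genotypes are alike.

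**Figure D3:**
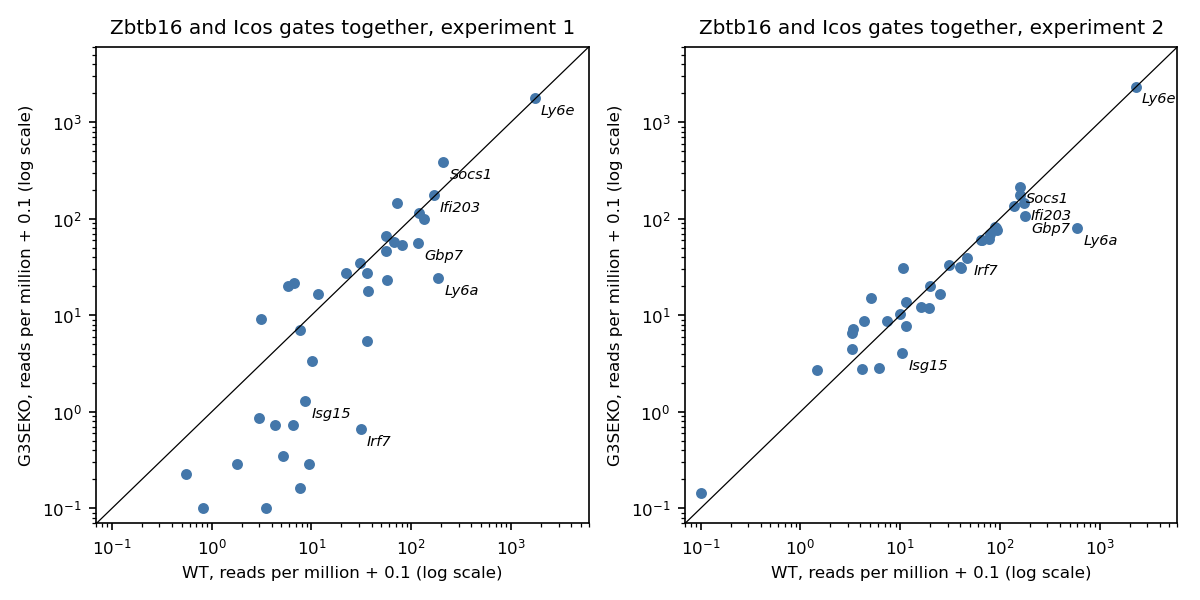
Level of each gene in WT (x axis) and G3SEKO (y axis) cells of the Zbtb16 and Icos gates together, as reads per 1000000 counted plus 0.1 on log axes, in experiment 1 (left) and experiment 2 (right), with the line of equality. Each point is 1 gene, and Ly6a lies below the line in both panels while Ly6e lies on it.

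In the Il1rl1 gate experiment 1 had 1 G3SEKO cell, so no test could be made. In experiment 2 the gate held 49 A0303 and 3546 WT cells. Ly6a stood at 406 CPM in A0303 and 1321 CPM in WT cells, and Ly6e at 2692 and 2966 CPM. Of the 24 genes of the set at 10 CPM or more in the WT cells, 16 were higher and 8 lower in A0303 cells, against 48.1% and 51.9% of all 9344 genes at that level. Their median log2 difference was 0.28, against -0.04 over all these genes. One of the 49 cells had a high response as defined below. With that cell and the 10 such WT cells left out, the summed level of the set without Ly6a and Ly6e went from a log2 difference of 0.32 to -0.15. The antiviral core defined below kept its direction, at 542 CPM in A0303 against 137 CPM in WT cells, and at 319 against 118 CPM without the high-response cells. The 21 remaining genes summed to 2127 against 2008 CPM, and to 1571 against 1982 CPM without them, so the sign of the whole sum turned with 1 cell while that of the core did not.

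Single cells with a strong response were counted with a core of 14 genes: Ifit1, Ifit2, Ifit3, Isg15, Irf7, Mx1, Oas1a, Oas2, Oas3, Oasl1, Oasl2, Rsad2, Usp18 and Ifi44. A cell was taken to have a high response when at least 5 of them reached ln(1 + reads per 10000) of 1. This is a range of a score and not a cell type. In WT cells 583 of 681 in experiment 1 and 4486 of 5130 in experiment 2 had none of the core genes at that limit, and 69 and 537 had 1.

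A high response was found in 5 of 681 WT cells of experiment 1 (0.734%, exact 95% binomial interval 0.239% to 1.71%) and in 17 of 5130 WT cells of experiment 2 (0.331%, 0.193% to 0.53%). Among cells taken as G3SEKO it was 0 of 43 in experiment 1, with an upper limit of 8.22%, and 5 of 1159 in experiment 2 (0.431%, 0.14% to 1.004%). The intervals overlap between experiments and between genotypes, and the difference between genotypes was not tested. With at least 7 core genes required, the share was 0.0975% of WT cells (0.0317% to 0.227%) and 0.431% of A0303 cells (0.14% to 1.004%) in experiment 2, 5 cells in each. In experiment 1 it was 3 of 681 WT cells and none of the 43 G3SEKO cells. Just under the limit, with 3 or 4 core genes, lay 6 WT cells in experiment 1, 28 in experiment 2 and 7 A0303 cells. Among the WT hashtags of experiment 1 the counts were 0 of 259, 2 of 232 and 3 of 190 cells. Thinned to 6000 reads, 3 and 13 WT cells passed.

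**Figure D4:**
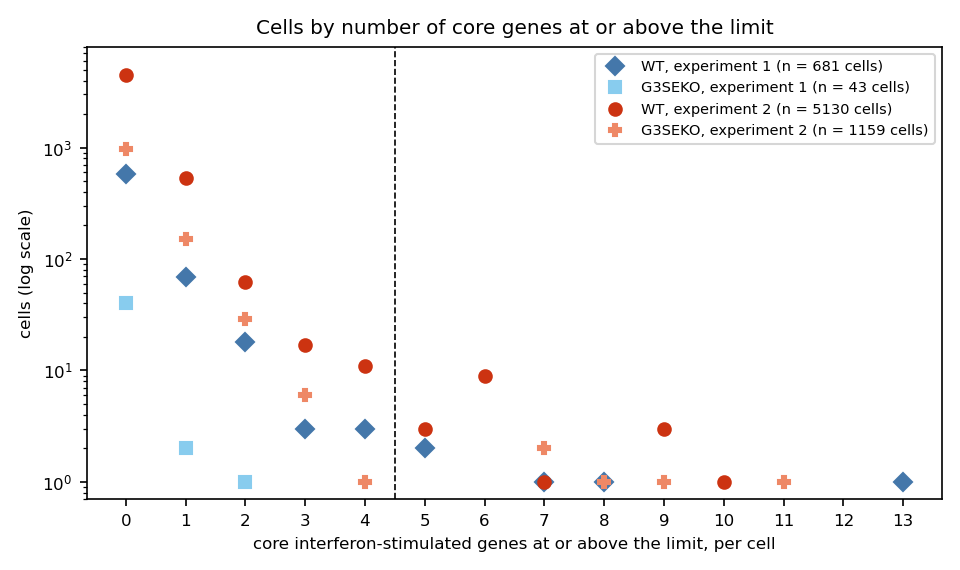
Number of cells (log axis) by the number of core genes at or above the limit in the cell, for WT and G3SEKO cells of each experiment, with the limit of 5 genes as a dashed line. A number of genes that no cell had carries no point, most cells have 0, and the tail reaches 13 core genes in a WT cell of experiment 1 and 11 in an A0303 cell of experiment 2.

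By gate, the WT cells with a high response were 4 of 424 in the Il1rl1 gate, 1 of 80 in the Icos gate and 0 of 87 in the Zbtb16 gate of experiment 1. In experiment 2 they were 10 of 3546, 3 of 563 and 0 of 216, with 1 of 38 in the Ccr6 gate and 3 of 734 outside every gate. For the Zbtb16 gate the exact upper limits are 4.15% and 1.69%, above the shares of the Icos and Il1rl1 gates in the same experiments, so a lower share than in those gates was not detectable. The 1 cell of the Ccr6 gate in experiment 2 is a share of 2.63%. In A0303 cells 1 was found in each of the Zbtb16, Icos, Il1rl1, Ccr6 and Cd3e gates, and the first of these had 11 core genes at the limit.

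These few cells held a large part of the core reads. The 5 WT cells of experiment 1 supplied 0.952% of all WT reads and 35.8% of the reads of core genes, and the 17 of experiment 2 supplied 0.442% and 18.4%. Without them the summed level of the 13 core genes in both tables in the Il1rl1 gate went from 204 to 106 CPM in experiment 1 and from 137 to 118 CPM in experiment 2. The Zbtb16 gate, which had no such cell, stood at 97.7 and 113 CPM. Ly6e, Gbp7 and Ifi203 were called higher in the Il1rl1 gate also without the high-response cells.

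The most responsive WT cell, in the Il1rl1 gate of experiment 1, had all 13 core genes of its table at the limit, with core genes at 9949.9 CPM and the whole set at 23706 CPM over 793379 reads. Isg15 reached the limit in 5 of 5 WT cells of experiment 1 and 14 of 17 of experiment 2, and in 1.78% and 1.06% of the other WT cells. Rsad2, the gene of the antiviral enzyme viperin, did so in 5 and 10 cells, and Irf7 in 4 and 15. The core chose these cells, so its values describe the choice and carry no test. Mx1 stood at 325 and 793 CPM in them against 0.816 and 1.36 CPM in the rest, and Ifit3, which binds viral RNA in a complex with IFIT1, at 140 and 149 CPM against 0.582 and 0.611 CPM.

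Genes of the set outside the core, which the choice did not read, were also higher in these cells. Of 23 such genes 17 were at least 2-fold higher in the WT high-response cells of both experiments, with medians of 6.5-fold and 5.88-fold, against 1.98% of all 23036 genes with a read in the other cells. At 10 CPM or more in the other cells of both experiments it was 15 of 19 genes, against 2.87% of 9071 genes. Isg20, an RNA exonuclease gene, stood at 582 and 739 CPM against 15.8 and 28.3 CPM in the other cells. Zbp1 was at 399 and 416 CPM against 32.6 and 27.7 CPM, Stat2 at 684 and 373 CPM against 57.0 and 51.1 CPM, and Dhx58 at 227 and 202 CPM against 13.9 and 7.91 CPM. The 6 exceptions were Ly6e, Irf1, Irf9, Socs1, Gbp3 and Ifi27l2a. Ly6e was 1.57-fold and 1.45-fold higher and Irf9 2.59-fold and 1.38-fold. Irf1 stood at 350 against 142 CPM in experiment 1 and 190 against 194 CPM in experiment 2. Socs1 was at 673 against 166 CPM in experiment 1 and at 331 against 167 CPM in experiment 2. Gbp3 was at 218 against 4.05 CPM in experiment 1 and had no read in the 17 cells of experiment 2, against 11.4 CPM in the rest. Ifi27l2a was at 0.301 CPM and 0 in the high-response cells, against 7.92 and 1.56 CPM.

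The same cells were compared for genes outside the set. Of 54 further interferon-stimulated genes 39 were at least 2-fold higher in both experiments, against the same 1.98% of all genes, and 34 of the 43 at 10 CPM or more in the other cells, against 2.87%. Cxcl10, a chemokine gene, was at 617 and 790.4 CPM against 0.538 and 5.81 CPM, and Ifitm3, whose product blocks virus entry, at 608 and 249 CPM against 5.22 and 1.35 CPM. The receptor genes Ifnar1 (19.9 and 54.9 CPM against 60.4 and 83.3 CPM) and Ifnar2 (78.8 and 71.1 CPM against 60.5 and 54.0 CPM) and the kinase gene Tyk2 (20.2 and 28.0 CPM against 51.7 and 68.9 CPM) were not at least 2-fold higher in both experiments, and the median ratio over the 21 listed genes for receptors and signalling was 0.867 in experiment 1 and 0.746 in experiment 2. Ifng, the gene of interferon-γ, had no read in the high-response cells of either experiment.

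**Figure D5:**
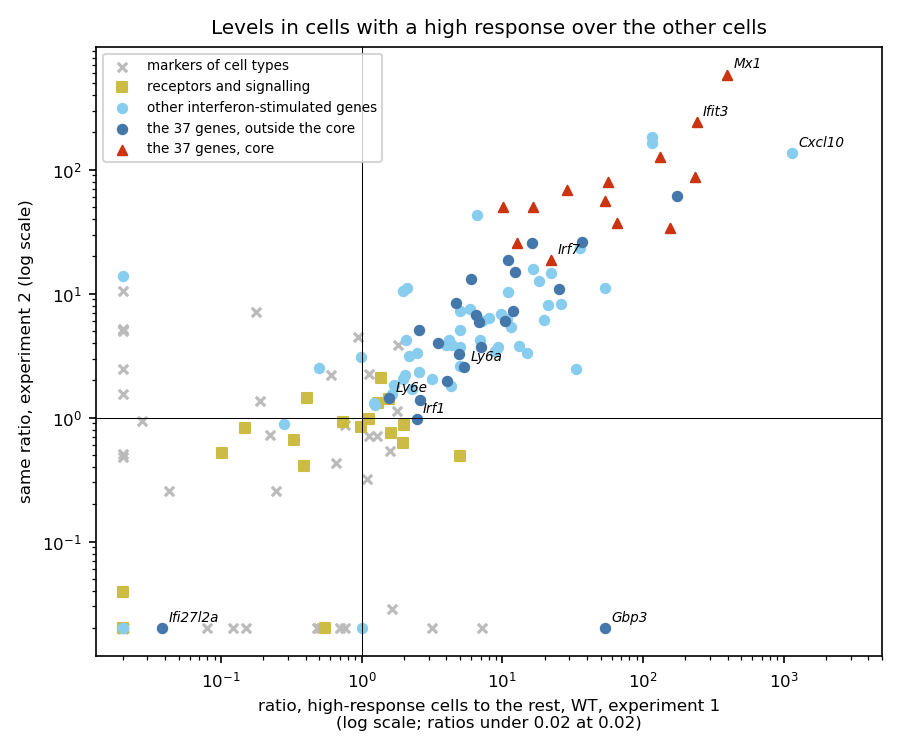
Ratio of the level in WT cells with a high response to that in all other WT cells, in experiment 1 (x axis) and experiment 2 (y axis), on log axes with ratios under 0.02 drawn at 0.02 and lines at 1. Triangles are core genes, which the choice of cells fixes, dark circles the other genes of the set, light circles further interferon-stimulated genes, squares receptor and other signalling genes (1 left out) and crosses markers of cell types. The core and 17 of 23 other genes of the set lie above 2 on both axes, and no cell type marker does.

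Genes of progenitor identity were read in the cells with a high response. Id2, required of all cells kept, was at 3822 and 2182 CPM in them against 2764 and 2053 CPM in the rest, and Il7r, the gene of CD127, at 1726 and 2549.98 CPM against 1768 and 2063 CPM. Gata3 was at 266 and 720.4 CPM against 1196 and 1001 CPM. No gene of the marker lists was at least 2-fold higher in both experiments, but within an experiment the lists moved. The median ratio of the LTi or ILC3 list was 0.0775 in experiment 1 and 3.17 in experiment 2, where Ccr6 stood at 110.9 against 10.5 CPM, Cxcr5 at 114 against 21.9 CPM, and 1 of the 17 cells was in the Ccr6 gate. It was 0.129 and 1.04 for the ILC progenitor list and 0.222 and 0.72 for the ILC2 list, and the part of cell type in the response was not tested. Siglech and Cox6a2 had no read in any of them. Their median reads per cell were 745194 in experiment 1 and 37238 in experiment 2, against 395860 and 29643 in the other WT cells, and these cells were deeper. No doublet caller was run, and the part of depth or doublets was not tested.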

How the data were processed

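Both mRNA libraries of αLPs were analysed. The authors trimmed reads with Cutadapt, used Bowtie2 with Ensembl gene models on GRCm38, and deposited tables of raw read counts whose columns are cells named by hashtag. Each read counted, also where several came from the same molecule. The deposited hashtag counts were not used. Cells passed the limits on reads that the methods state, at most 10% mitochondrial reads, 1 hashtag and Id2 at ln(1 + reads per 10000) of 1 or more. This left 724 of 1033 listed cells in experiment 1 and 6289 of 7630 in experiment 2. In all, 102 columns called as doublets or without a hashtag were not used. No doublet caller was run.

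Reads were summed per gate, genotype and experiment (at least 5 cells) and tested with edgeR 4.0.16 (R 4.3.3, quasi-likelihood test, TMM, filter on low counts, experiment as block, Benjamini-Hochberg over all genes tested, called at an adjusted p under 0.05). The sums are paired by experiment because cells of both genotypes and of all gates were processed together in each. Log2 ratios within an experiment add 2 reads. CPM are reads per 1000000 counted. On simulated counts 26% of 4-fold and 53% of 16-fold changes were recovered between the genotypes (18474 genes). Alternatives were DESeq2 1.42.0, no filter, no block, no Id2 limit, thinned cells, hashtags as samples, gates at 1.5, other cells not excluded, each sum left out, and other limits on core genes. Leaving out the high-response cells was added after seeing the data.

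The genes, the core and the lists were chosen with earlier results of these data known. All genes of the set were described by role, in full where called or prominent in the high-response cells. Promoters came from RefSeq (GRCm38.p6), and gene positions from GENCODE vM21 (GRCm38), not the annotation used for counting. The 11 shared cell names are barcode numbers. Wilcoxon tests over cells, as in the study's methods, were not used because cells are not replicates. One gene of the signalling list and 1 of the erythroid list are not reported here.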

Additional observations from a re-analysis of the deposited data

How the results depend on the processing

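The log2 changes followed singly (Ly6e, Gbp7, Ifi203, Ly6a, Bst2 and Parp14 between the Zbtb16 and Il1rl1 gates, Ly6e, Ifi203, Ly6a, Bst2 and Socs1 between the Zbtb16 and Icos gates, and Ly6a, Gbp7 and Socs1 between genotypes) kept their direction in each of 15 or, for the genotypes, 11 alternatives. The numbers of calls did not. Between the Zbtb16 and Il1rl1 gates the 3 genes called higher became 12 with DESeq2 (2635 of all genes called), 6 with cells thinned to 6000 reads (1179) and 5 with hashtags as samples (729), and 0 to 4 with each sum left out. In the paired design the experiment is the block, and with no replicate block 1 gene remained, Ifi203 (200 of all genes called). The blocked and unblocked fits differed in no other call of the set. Between the Zbtb16 and Icos gates the 0 calls became 6 higher and 1 lower with DESeq2 (2123 of all genes), 4 higher and 1 lower with thinned cells (568), and 2 higher with hashtags as samples (190). Between the Icos and Il1rl1 gates DESeq2 called 1 higher and 1 lower (753), and thinned cells gave 50 calls over all genes and 0 in the set. For the Eomes gate no alternative called a gene of the set. Between genotypes the 0 lower calls became 1 with DESeq2 (Ly6a) and 2 with thinned cells (Ly6a and Gbp7, 102 of all genes). In the Il1rl1 gate of experiment 2, the log2 difference of the summed set without Ly6a and Ly6e was 0.32, and 0.22 with thinned cells, 0.56 with gates at 1.5 and -0.15 without high-response cells. The share of WT cells with a high response in experiment 2 was 0.331%, and 0.877% with at least 3 and 0.0975% with at least 7 core genes; that of A0303 cells was 0.431%, 1.04% with at least 3 and 0.431% with at least 7. With core genes at 1.5 the WT shares were 0.294% in experiment 1, against 0.734%, and 0.214% in experiment 2. The causes of these shifts were not tested. Sparse reads limit what could be detected, as the median gene of the set had a read in 5.30% of WT cells of experiment 2, and in 3.35% after thinning. DESeq2 adjusted p-values given as NA were left as NA.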
